A study of Glycine max with 23 samples.

Results

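miR396 is a family of plant microRNAs, represented here by the 3 soybean genes gma-MIR396a, gma-MIR396b and gma-MIR396i. They were chosen by name from a table of 3933 entries, where an entry pairs a mature sequence with its hairpin precursor. The 3 genes hold 6 entries, 1 for each arm of each hairpin, and these carry 5 distinct sequences of the 2839 in the table. The small RNAs came from 23 libraries of soybean (Glycine max) cv. Williams 82, with no treatment named in the labels. Each tissue and stage had 1 library, apart from florescence, taken on 2 dates. Seeds were taken at weeks 6, 8 and 10 and pods at weeks 1, 2 and 3. Flowers were taken as flower bud, as bud before flowering, at florescence on 2 dates and 5 days after flowering. Older leaf comprised the old trefoil leaf, the old leaf at flower bud differentiation and the senescent leaf, and new leaf comprised the new germination leaf, the new trefoil leaf and the new leaf at flower bud differentiation. The remaining libraries were the leaf bud at flower bud differentiation, stem and cotyledon at the trefoil and germination stages, and root at germination. Libraries of an organ are thus different stages or dates and not labelled as biological replicates. SDs and p-values set a difference against the spread between these libraries.

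In plants miR396 guides the cleavage of messenger RNAs of growth-regulating factors (GRFs), transcription factors that keep cells dividing in young leaves and other growing organs. In Arabidopsis it accumulates in the parts of a leaf that have stopped dividing, and the TCP transcription factors targeted by miR319 activate its genes. The 5p strand of the hairpin is the one known to guide GRF cleavage, and the 3p strand is its partner in the duplex.

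The mature sequences are printed below because their near identity decides what can be told apart in these data. Capitals mark the seed, bases 2 to 8 counted from the 5′ end, and T stands for U as in the table.
miR396a-5p: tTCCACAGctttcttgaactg
miR396b-5p: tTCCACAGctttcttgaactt
miR396i-3p: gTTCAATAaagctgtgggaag
miR396a-3p: tTCAATAAagctgtgggaag
miR396b-3p: gCTCAAGAaagctgtgggaga
Both 5p sequences share the seed TCCACAG and differ only at their last base, written from miR396a-5p to miR396b-5p as G21T with positions counted from the 5′ end. The sequence called miR396a-5p here is listed identically for gma-MIR396a and gma-MIR396i, so the 5p products of these genes cannot be told apart. The miR396b-5p sequence is also that of gma-MIR396c, and the miR396b-3p sequence also that of gma-MIR396k. The 3p sequences have 3 different seeds. From miR396i-3p to miR396b-3p the substitutions are T2C, T7G, A20G and G21A, and miR396a-3p equals miR396i-3p from its base 2 onwards.

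The hairpins lie in convergent pairs on opposite strands. gma-MIR396b occupies chr13:26329931-26330056 on the plus strand and gma-MIR396a chr13:26338134-26338273 on the minus strand, 8077 nt apart. gma-MIR396i occupies chr17:9044850-9044984 on the plus strand, and gma-MIR396d follows it on the minus strand, 8064 nt away. Positions are as the table gives them, their genome build is not given in the sources used here, and no gene annotation was used for them. A further hairpin without a miRNA name overlaps each of gma-MIR396a and gma-MIR396i by 119 nt, and both list the same 3p sequence.
M4957-3p: cggttcaataaagctgtggga
The first 19 bases of miR396i-3p start at base 3 of this sequence, so those 19 bases are present at both loci and the name miR396i-3p does not place its reads on chromosome 17. Unnamed hairpins that list a 22 nt 5p sequence holding all of miR396b-5p overlap gma-MIR396b, gma-MIR396c, gma-MIR396d and gma-MIR396f. Those over gma-MIR396b and gma-MIR396d also list a 3p sequence holding all of miR396b-3p. gma-MIR396e on chromosome 17 lists a 22 nt sequence holding all of miR396a-5p. The names of these sequences thus do not place their reads at the named hairpins alone.

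Levels are given as tags per 5000000 sequenced tags (TP5M), the deposited unit. Library totals recovered from the smallest steps ran, in units of 1e6 tags, between 3.63 and 6.74, and 3 reads, the limit that a count of 0 allows, were worth 2.22 to 4.14 TP5M. Counting error is thus small for the 4 abundant sequences beside the spread between libraries. That spread cannot be split here into stage and library variation. Listed miRNAs took 2.04% of the tags in root and 4.61% to 17.5% elsewhere. A set of 28 sequences was listed only in 6 libraries, the old trefoil leaf, both leaves at flower bud differentiation and the 3 pods. This split was found in the data and is no batch named in the labels, and its effect on the organ and leaf comparisons is given beside them. Tissue markers are not part of a microRNA table, so the tissue labels were not checked against any. In bulk tissue, fewer cells of a type and less RNA per cell cannot be told apart.

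Of the 5 sequences, 4 were present in all 23 libraries and ranked among the most abundant of the table. miR396b-5p averaged 13855 TP5M and ranked 5 of 2839. miR396i-3p averaged 7373 TP5M (rank 12), miR396a-5p 4976 TP5M (rank 18) and miR396b-3p 2426 TP5M (rank 36). The partner strand of miR396a-5p thus had a higher mean than the guide. Their medians were close, at 4242 TP5M for miR396i-3p and 4270 TP5M for miR396a-5p. By contrast, miR396b-3p stayed below miR396b-5p in all 23 libraries. The fifth sequence, miR396a-3p, was listed at 538 TP5M in the old trefoil leaf, at 49.8 TP5M in the pod of week 1 and at 0 in the other 21 libraries. Both of its libraries belong to the set of 6, and as a 20 nt part of miR396i-3p it is given no comparison of its own. All 5 passed the filter of a mean of at least 5 TP5M, miR396a-3p through the old trefoil leaf alone. Summed over the 5, miR396 took from 0.790% of the table's signal in the new germination leaf to 12.7% in the pod of week 3.

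**Figure D1:**
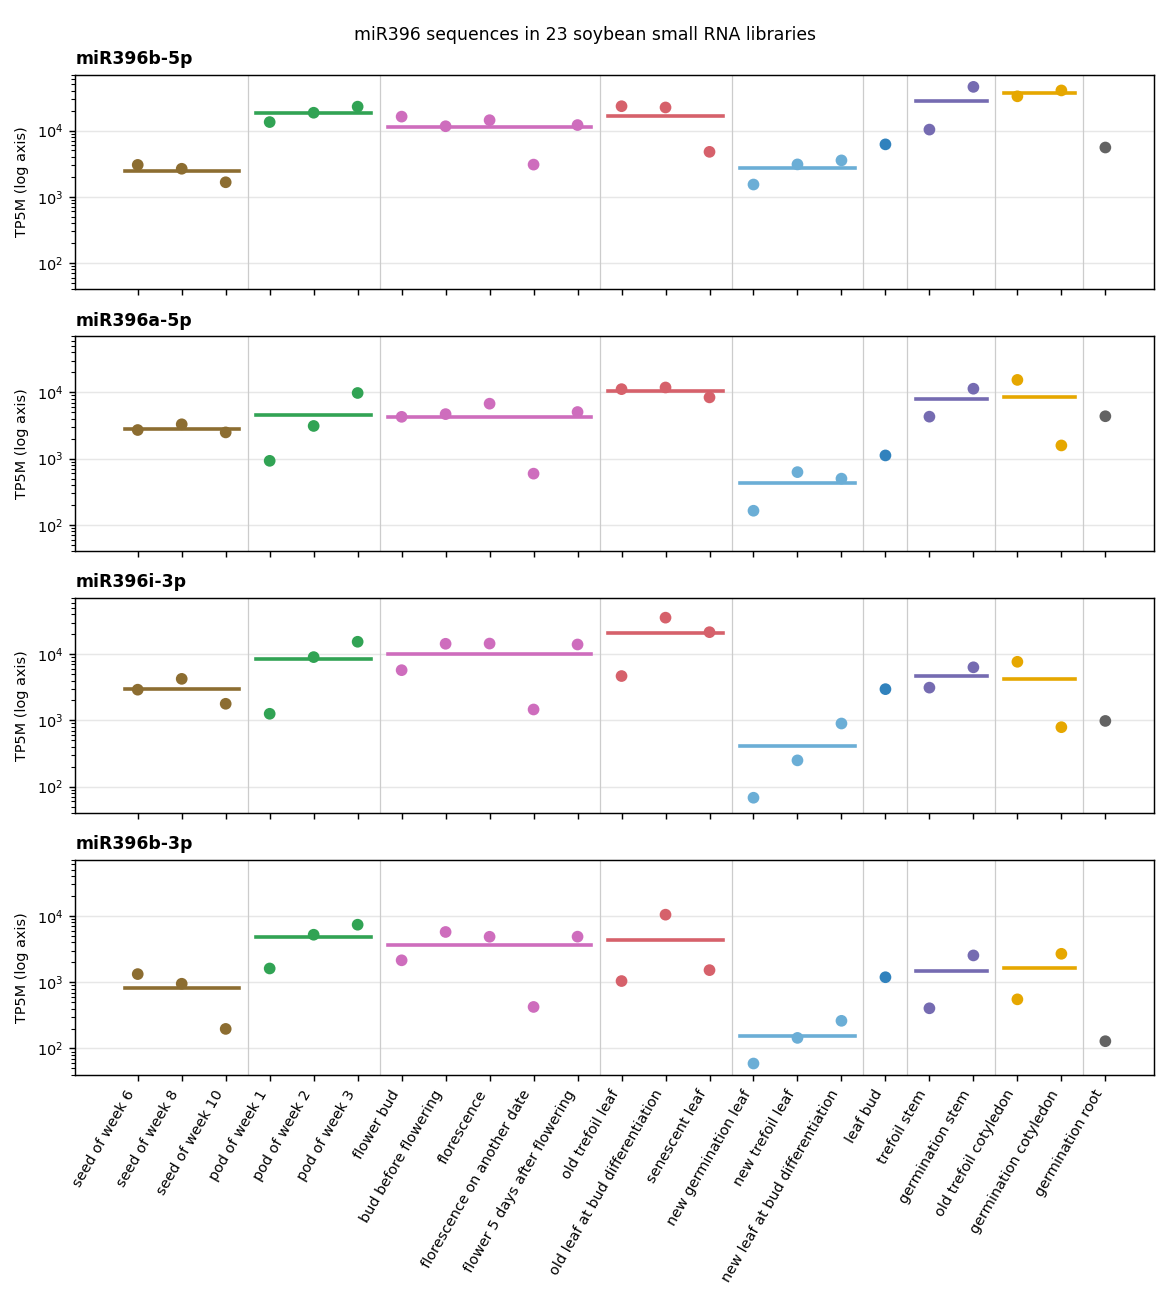
Level of the 4 abundant miR396 sequences in each library (TP5M, log axis), coloured by organ, with horizontal lines at the mean of organs or leaf ages with more than 1 library. New leaf holds the lowest mean of all 4 sequences other than miR396b-5p among groups with 2 or more libraries, and miR396b-5p is highest in germination stem at 45591 TP5M.

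The leaf libraries allowed the comparison for which miR396 is best known, older against new leaf. All 4 abundant sequences were higher in older than in new leaf, by 6.18-fold to 50.8-fold in mean TP5M, with no overlap between the 3 older and the 3 new leaves. Each difference passed the test, in limma on log2(TP5M + 5), a scale that understates changes of low values. Over the whole table, 14.5% of 595 sequences were called in this comparison, 9.58% as higher in older leaf, and 24.2% did not overlap between the groups.

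miR396a-5p, a guide strand, stood at 11178 TP5M in the old trefoil leaf, 11848 in the old leaf at flower bud differentiation and 8395 in the senescent leaf, against 624.5 in the new trefoil leaf, 498 in the new leaf at flower bud differentiation and 163 in the new germination leaf. The 3 older leaves were close to each other, and the highest new leaf stayed far below the lowest of them. The means were 10474 ± 1831 TP5M in older leaf and 429 ± 238 TP5M in new leaf (SD, n = 3 each), a 24.4-fold difference (log2 difference 4.78 ± 0.96 SE, limma adjusted p = 0.00377).

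miR396b-5p, the other guide, stood at 23271 TP5M in the old trefoil leaf, 22285 in the old leaf at flower bud differentiation and 4762 in the senescent leaf, against 3079, 3538 and 1529 TP5M in the new trefoil leaf, the new leaf at flower bud differentiation and the new germination leaf. Here the senescent leaf was low among the older leaves and close to the new leaves. The means were 16773 ± 10413 TP5M in older leaf and 2715 ± 1053 TP5M in new leaf, a 6.18-fold difference (log2 2.40 ± 0.68 SE, limma adjusted p = 0.0277). The call was lost without a filter on low values (limma adjusted p = 0.0503) and without the old trefoil leaf, the new trefoil leaf, the old leaf at flower bud differentiation or the new germination leaf (0.0525 to 0.0861).

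miR396i-3p, a partner strand, stood at 4679 TP5M in the old trefoil leaf, 35613 in the old leaf at flower bud differentiation and 21502 in the senescent leaf, against 249, 898 and 68.0 TP5M in the new trefoil leaf, the new leaf at flower bud differentiation and the new germination leaf. It spanned a wide range within each age, and the old leaf at flower bud differentiation held its highest value of all 23 libraries. Its mean was 50.8-fold higher in older leaf (20598 ± 15487 against 405 ± 437 TP5M; log2 5.90 ± 1.16 SE, limma adjusted p = 0.00326). miR396b-3p, the partner of miR396b-5p, stood at 1043, 10484 and 1525 TP5M in the same order of older leaves, against 145, 262 and 59.3 TP5M in the new leaves. Its mean was 28.0-fold higher in older leaf (4351 ± 5317 against 155 ± 102 TP5M; log2 4.23 ± 1.14 SE, limma adjusted p = 0.0214). This call was lost without the new trefoil leaf (adjusted p = 0.0513), the old leaf at flower bud differentiation (0.0751) or the new germination leaf (0.0698).

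**Figure D2:**
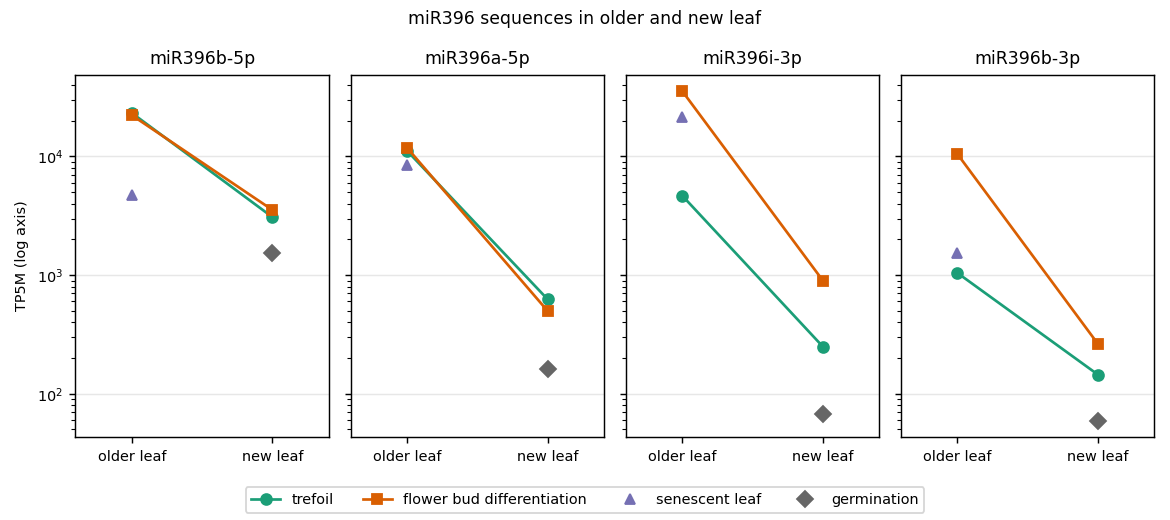
Level of each abundant miR396 sequence in older leaf (left) and new leaf (right), in TP5M on a log axis, with lines joining leaves of the same plant stage. Every older leaf lies above every new leaf for each sequence, and the gap is narrowest for miR396b-5p, where the senescent leaf holds 4762 TP5M and the new leaf at flower bud differentiation 3538 TP5M.

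Plant stage and leaf age are partly mixed in these groups, because germination leaf is new only and senescent leaf older only. The pairs of the same stage, 1 library each, give the difference at a matched stage, with 95% counting intervals that leave out biological variation. At the trefoil stage the old leaf over the new leaf was 17.9-fold for miR396a-5p (95% interval 16.4 to 19.5), 18.8-fold for miR396i-3p, 7.56-fold for miR396b-5p and 7.22-fold for miR396b-3p. At flower bud differentiation it was 23.8-fold for miR396a-5p, 39.6-fold for miR396i-3p, 40.1-fold for miR396b-3p and 6.30-fold for miR396b-5p. All 4 were thus higher in the old leaf at both stages.

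Several other measures moved with leaf age. The share of tags taken by all listed miRNAs was 10.5% to 15.2% in older leaf and 4.61% to 10.4% in new leaf, and of the 6 libraries with extra sequences 2 are older leaves and 1 is a new leaf. As a share of the summed table signal, which does not depend on the tag total, miR396 took 6.92% to 10.6% in older leaf and 0.790% to 1.34% in new leaf. Within the 6 libraries the older leaves (n = 2) over the new leaf (n = 1) were 23.1-fold for miR396a-5p, 22.4-fold for miR396i-3p, 22.0-fold for miR396b-3p and 6.44-fold for miR396b-5p. Among the other libraries the senescent leaf over both new leaves was 21.3-fold, 135-fold, 15.0-fold and 2.07-fold for the same sequences. With a term for the 6 libraries all 4 calls were kept. With plant stage as a block in limma, chosen after seeing the data and resting on the 2 matched stages, the log2 differences were 4.35 ± 1.22 (SE) for miR396a-5p (adjusted p = 0.0331), 4.75 ± 1.28 for miR396i-3p (0.0278), 2.78 ± 0.72 for miR396b-5p (0.0230) and 4.05 ± 1.35 for miR396b-3p, whose call was lost (0.0563). The block was fitted on all 23 libraries, so these SEs and p-values rest mostly on spread within organs other than leaf. Over all 595 sequences the log2 differences had a median of 0.063, and of 0.009 after TMM scaling, under which all 4 calls were also kept.

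Several organs were sampled at more than 1 age. The leaf bud lay above the new leaf of its own stage, with 6176 against 3538 TP5M of miR396b-5p and 1116 against 498 TP5M of miR396a-5p. For the partner strands the leaf bud held 2967 against 898 TP5M of miR396i-3p and 1192 against 262 TP5M of miR396b-3p. It still lay below the old leaf of that stage for all 4 sequences. In cotyledon the sequences differed in direction. The old trefoil cotyledon held 15412 TP5M of miR396a-5p, against 1579 TP5M in the germination cotyledon, a 9.76-fold difference, and miR396i-3p was 9.71-fold higher there (7677 against 790.4 TP5M). miR396b-5p was 32840 against 40274 TP5M and miR396b-3p 552 against 2691 TP5M, so both miR396b sequences were lower in the old trefoil cotyledon. In stem all 4 were lower at the trefoil stage than at germination, with miR396b-5p at 10322 against 45591 TP5M and miR396a-5p at 4293 against 11349 TP5M. For the partner strands trefoil stem held 3127 against 6338 TP5M of miR396i-3p and 405 against 2543 TP5M of miR396b-3p. Germination root held 5538 TP5M of miR396b-5p, 4358 of miR396a-5p, 982 of miR396i-3p and 129 of miR396b-3p, next to the lowest table signal of any library. As a share of that signal, miR396 took 10.8% in root, a share exceeded only in the pod of week 3.

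Pods and seeds followed a time course with 1 library per age. miR396b-5p was 13407, 18546 and 22921 TP5M in pods of weeks 1, 2 and 3, and miR396a-5p 925, 3109 and 9781 TP5M. miR396i-3p was 1259.9, 9036 and 15405 TP5M and miR396b-3p 1615, 5221 and 7396 TP5M at the same ages. All 4 were higher at each later week, and week 3 over week 1 was 1.71-fold for miR396b-5p, 10.6-fold for miR396a-5p, 12.2-fold for miR396i-3p and 4.58-fold for miR396b-3p, with counting intervals that exclude 1. In seeds of weeks 6, 8 and 10, miR396b-5p was 3025, 2645 and 1654 TP5M and miR396b-3p 1329, 949.8 and 198 TP5M. miR396a-5p was 2699.8, 3294 and 2484 TP5M and miR396i-3p 2911, 4242 and 1784 TP5M. Both miR396b sequences were thus lower at each later week, while the other sequences were highest at week 8. Without replicate libraries, none of these differences between single ages has a replicate check.

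**Figure D3:**
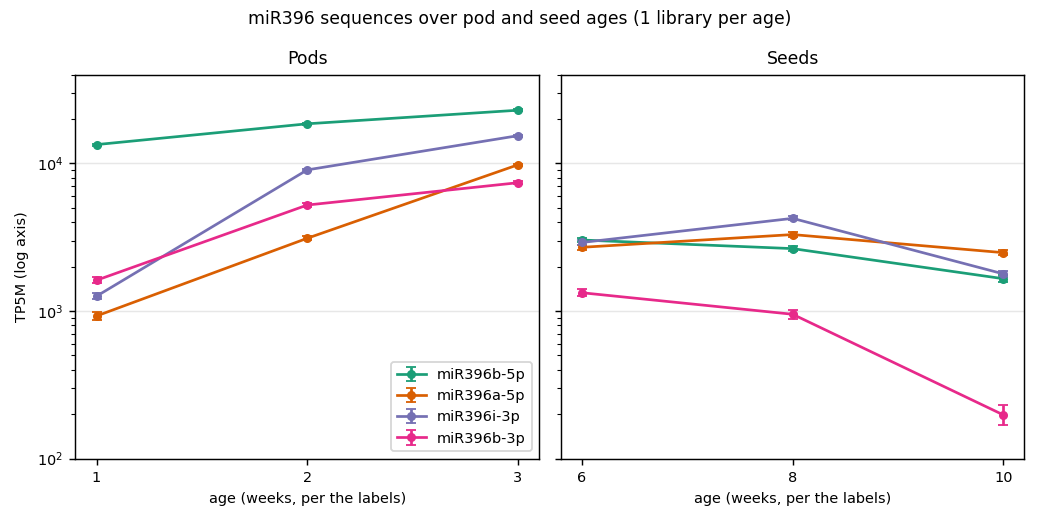
Level of the 4 abundant sequences in pods of weeks 1 to 3 (left) and seeds of weeks 6 to 10 (right), in TP5M on a log axis with exact 95% counting intervals, which mostly lie within the points. All 4 lines climb across the pods, while miR396b-3p ends at 198 TP5M in week 10 seed, against 1329 TP5M in week 6 seed.

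Among the 5 flower libraries, florescence on another date held the lowest level of all 4 sequences. miR396b-5p had a lowest, median and highest value of 3056, 12085 and 16208 TP5M in flowers, and miR396a-5p 592, 4692 and 6744 TP5M. For miR396i-3p these values were 1462, 14016 and 14474 TP5M, and for miR396b-3p 424, 4865 and 5746 TP5M. The flower bud was next lowest in the partner strands, with 5737 TP5M of miR396i-3p and 2146 TP5M of miR396b-3p, against 14016 to 14474 and 4865 to 5746 TP5M in the 3 others, while its miR396b-5p was the highest. The 5p strands made up 72.2% of the summed miR396 in the flower bud, 65.9% in florescence on another date and 44.8% to 52.1% in the other 3. Set against the other florescence library, florescence on another date held 0.0878 times the miR396a-5p, 0.0872 times the miR396b-3p, 0.101 times the miR396i-3p and 0.213 times the miR396b-5p. Its listed miRNAs took 6.78% of the tags, against 11.6% in the other florescence library, and miR396 took 1.63% of the table signal against 6.99%.

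Between organs, miR396b-5p differed across the 4 organs with 3 or more libraries (seed, pod, flower and leaf; F-test in limma, adjusted p = 0.0476), at a test by which 39.5% of the table was called. The other 3 abundant sequences did not pass it (adjusted p = 0.165 for miR396b-3p, 0.549 for miR396i-3p and 0.925 for miR396a-5p). The call of miR396b-5p was lost with TMM scaling (adjusted p = 0.164), without a filter (0.0639), in edgeR's quasi-likelihood test on recovered reads (0.0808), in edgeR with TMM (0.163) and in 13 of 17 fits that each left out 1 library. Ordered by mean, miR396b-5p was highest in cotyledon (36557 TP5M), followed by stem (27956), pod (18291), flower (11453), leaf (9744), leaf bud (6176), root (5538) and seed (2442). Neighbours in this order overlapped in range as far down as leaf and leaf bud. The 7 organ comparisons share libraries and are not independent of each other.

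Seed was the organ lowest in miR396b-5p. The 3 seeds, at 1654 to 3025 TP5M, lay below the 3 pods, at 13407 to 22921 TP5M, a 7.49-fold lower mean (log2 difference −2.91 ± 0.87 SE, limma adjusted p = 0.0238, 16.3% of the table called and 50.1% not overlapping). The call was lost with TMM scaling (log2 −2.06, adjusted p = 0.0708), with edgeR and TMM (−2.09, 0.0912) and with a term for the 6 libraries (−0.80, 0.797), to which all 3 pods and no seed belong, so that pod and the set cannot be told apart there. Leaf is the only organ with libraries both inside and outside the set. The term was therefore estimated from the leaves, where the set is mixed with leaf age. Leaving out the seed of week 10, the seed of week 8, the pod of week 3 or the pod of week 2 also ended the call (adjusted p = 0.0624 to 0.0976). Flowers and seeds both lie outside the set of 6. There, miR396b-5p averaged 2442 ± 708 TP5M in seed and 11453 ± 5043 TP5M in flower (n = 3 and 5). The ranges did not overlap, as for 45.7% of the table, and the difference missed the threshold (log2 −2.08 ± 0.78 SE, 95% interval −3.70 to −0.45, limma adjusted p = 0.0503; 29.7% of the table called). With a pseudocount of 1 it passed (adjusted p = 0.0463), with the term for the 6 libraries also (0.0221), and it passed as well without the florescence library of another date (0.0194) and without the old trefoil leaf, the old leaf at flower bud differentiation or the new germination leaf (0.0317 to 0.0325). Other settings weakened it. Over 6 alternatives in limma and edgeR the log2 difference was −2.23 to −0.98, with an adjusted p of up to 0.328. Leaving out 1 library gave a limma adjusted p of up to 0.159.

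None of the 4 was called for flower minus leaf, pod minus leaf, seed minus leaf or pod minus flower, where 24.9%, 16.8%, 16.3% and 2.02% of the table were called. At an unadjusted p under 0.05, 2 of the 4 passed for pod minus leaf in limma, and 1 for seed minus leaf in edgeR, which also called none. Over the whole table, 170 and 255 of 595 sequences passed in the same 2 tests. Outside the set of 6, flower over leaf (n = 5 and 3) was 3.67-fold for miR396b-5p, 1.39-fold for miR396a-5p, 1.38-fold for miR396i-3p and 6.27-fold for miR396b-3p. There, seed over leaf (n = 3 each) was 0.782-fold, 0.923-fold, 0.410-fold and 1.43-fold for the same sequences. Within the set, pod over leaf (n = 3 each) was 1.12-fold, 0.587-fold, 0.624-fold and 1.21-fold, and the ranges overlapped in each of these 12 cases. These folds compare means of TP5M, and on the log2 scale of the tests some differ in size or sign. For the same sequences and libraries, flower minus leaf was 1.82, 1.79, 3.36 and 3.43 in log2. Seed minus leaf was −0.25, 1.55, 1.93 and 1.38, and pod minus leaf 0.54, −0.41, 0.075 and 1.47. Intervals were wide, since leaf spans old and new leaves: the 95% interval of miR396a-5p for seed minus leaf was −2.13 to 3.15. In 2 cases the outcome changed with the term for the 6 libraries or without 1 leaf. For flower minus leaf, miR396b-5p passed with the term (log2 1.82, limma adjusted p = 0.0496). The term rests on the leaves, with 2 older and 1 new leaf inside the set and 1 older and 2 new leaves outside it. Set and leaf age thus cannot be told apart in that result. Without the old leaf at flower bud differentiation, miR396b-3p passed for flower minus leaf (log2 2.98, adjusted p = 0.0302), for pod minus leaf (3.57, 0.0370) and in the F-test (0.0302).

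**Figure D4:**
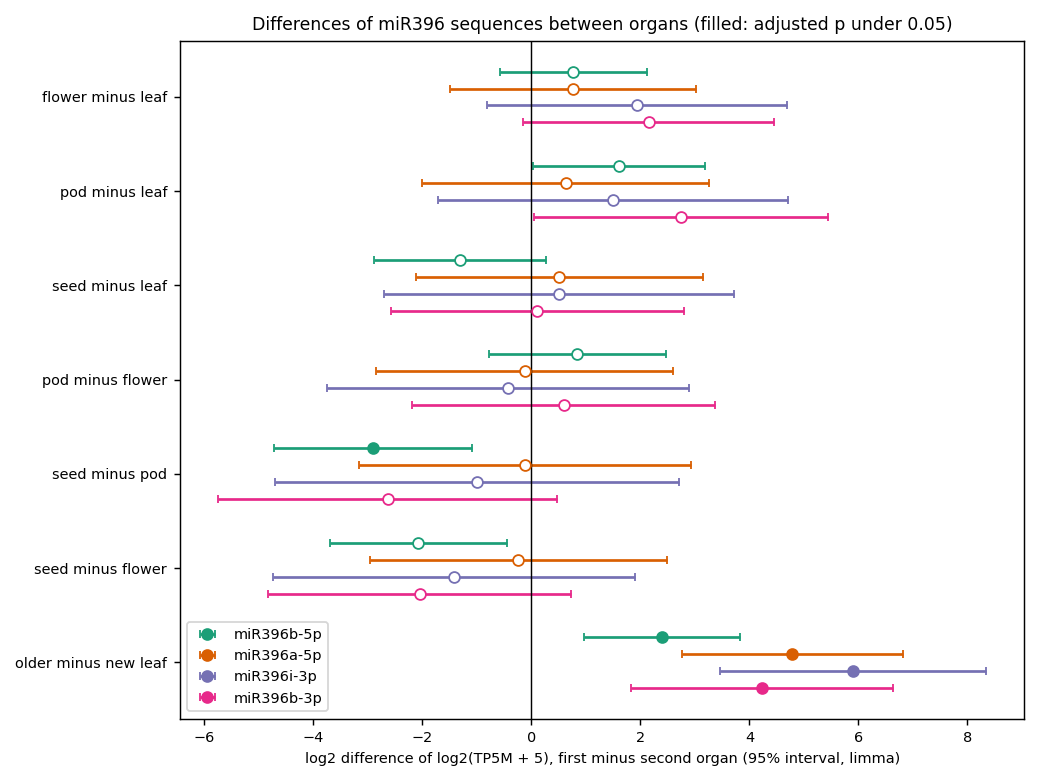
Difference in log2(TP5M + 5) of the 4 abundant sequences for each comparison, the organ named at the left of "minus" over the other, with 95% intervals from limma and filled points where the adjusted p is under 0.05. All 4 points are filled for older minus new leaf, and among the organ comparisons the only filled point is miR396b-5p for seed minus pod at −2.91.

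The ratio of sequences within a library does not depend on its scaling. miR396i-3p exceeded miR396a-5p in none of the 8 germination and trefoil libraries and in 14 of the 15 later ones, the exception being the seed of week 10. The excess of the partner strand was greatest in the bud before flowering, at 3.06-fold, and the old leaf at flower bud differentiation, at 3.01-fold, while the guide exceeded its partner most in root, at 4.44-fold. This split by plant stage was noticed after the values were seen and has no test. Only leaf was sampled both early and later, so plant stage and organ are largely mixed in it. miR396b-5p over miR396b-3p ranged from 2.02-fold in the bud before flowering to 59.5-fold in the old trefoil cotyledon. miR396a-5p exceeded the usually more abundant miR396b-5p in 3 libraries, by 1.76-fold in the senescent leaf, 1.50-fold in the seed of week 10 and 1.25-fold in the seed of week 8.

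Ratios between the 2 guides and between guides and partners were compared in 21 exact two-sided permutation tests, and none passed after adjustment over them. The log2 ratio of miR396b-5p over miR396a-5p was 0.16, −0.32 and −0.58 in seeds of weeks 6, 8 and 10, and 1.09 to 2.36 in the 5 flowers. The means of −0.25 ± 0.38 in seed and 1.59 ± 0.54 in flower (SD) came from ranges that did not overlap (exact permutation p = 0.0179, the smallest that 3 against 5 libraries allow, adjusted 0.188). It was 0.38 ± 1.04 in older leaf and 2.77 ± 0.45 in new leaf, again without overlap (exact permutation p = 0.1, the smallest that 3 against 3 allow, adjusted 0.331). The log2 ratio of miR396a-5p over miR396i-3p was 0.00 ± 0.43 in seed and −1.18 ± 0.46 in flower (exact permutation p = 0.0179, adjusted 0.188).

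**Figure D5:**
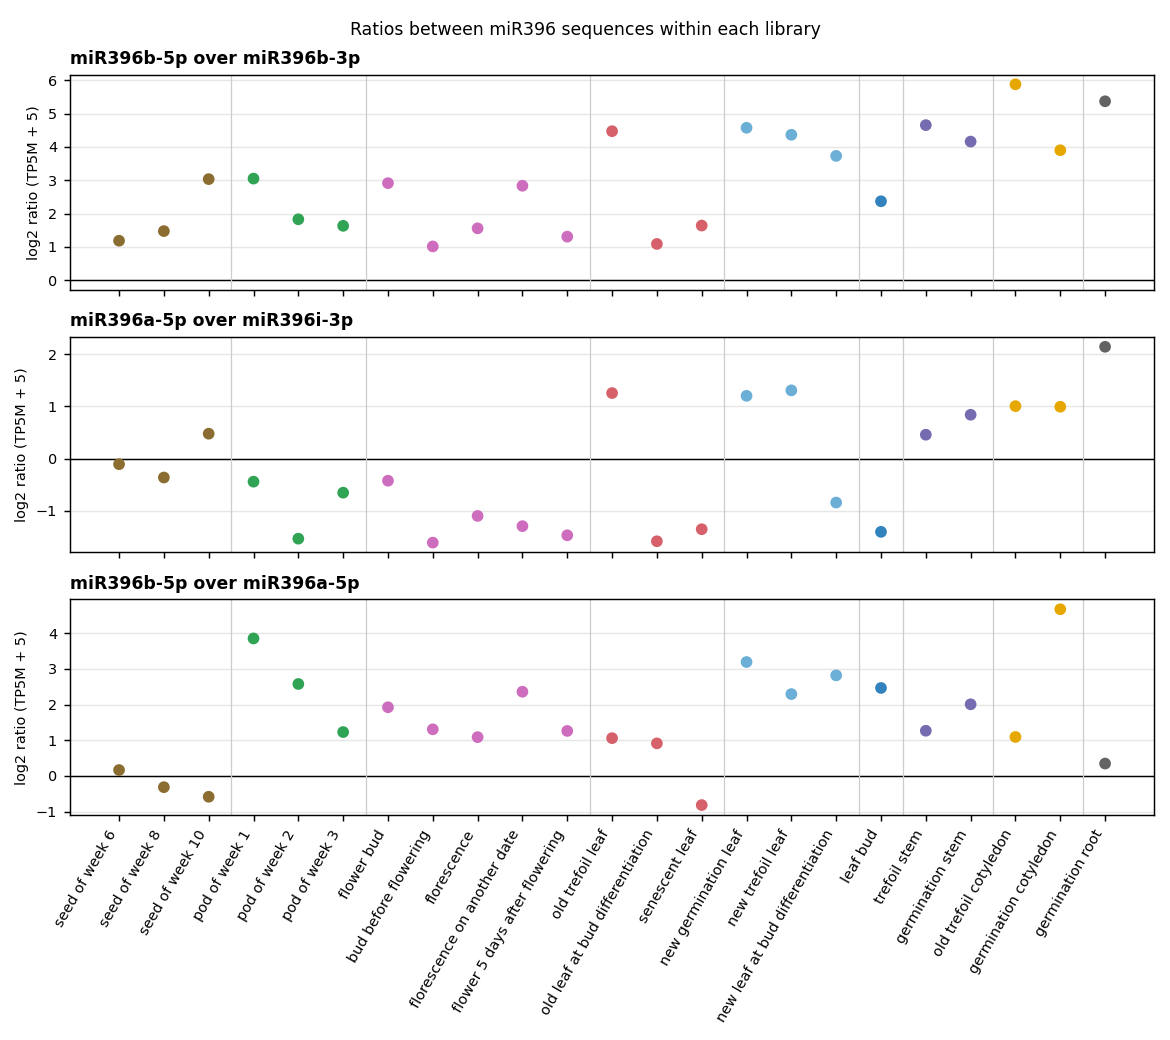
Log2 ratios within each library of miR396b-5p over miR396b-3p, miR396a-5p over miR396i-3p and miR396b-5p over miR396a-5p, each on TP5M + 5, with a line at 0 where both are equal. The middle panel lies above 0 in the 8 germination and trefoil libraries and below 0 in 14 of the 15 later ones.

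Across the 23 libraries, miR396a-5p and miR396i-3p followed each other most closely of the 4 abundant sequences (Spearman 0.812). The partner strands miR396i-3p and miR396b-3p came next (0.750). Values were lower for miR396b-5p with miR396a-5p (0.644), with miR396b-3p (0.637) and with miR396i-3p (0.467), and for miR396a-5p with miR396b-3p (0.509). These are descriptions over libraries of several organs that also share tag totals, and the median correlation of other sequences with miR396b-5p was 0.128. Sequences outside the family most like miR396b-5p over the libraries were miR530b (0.830, mean 144 TP5M), M2487-3p (0.825), miR5371-3p (0.773), miR1535b (0.717) and miR1507b (0.709), all of far lower level.

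Among 10 further sequences that carry the miR396 name or share 18 nt with a member, miR396j was the most abundant, with 335 TP5M on average and values in all 23 libraries. It was higher in the old leaf of both matched stages, at 543 against 98.2 TP5M at the trefoil stage and 1176 against 324 TP5M at flower bud differentiation. The senescent leaf held 125 TP5M, so that older and new leaves overlapped. M4957-5p, a shifted form from the gma-MIR396a and gma-MIR396i hairpins, averaged 36.2 TP5M and followed miR396a-5p closely (Spearman 0.949). M4782-5p is miR396b-5p with 1 more base at its end. It averaged 11.0 TP5M and followed miR396b-5p (0.915). miR396h is miR396a-5p without its first base. It was listed in 8 libraries, highest in the old trefoil cotyledon at 130 TP5M, and at 0 in all 6 libraries of the set. M4957-3p averaged 22.3 TP5M, M4782-3p 4.82, miR396e 2.84 and miR396d 1.33 TP5M, and miR396f and miR396g were listed at 0 throughout.

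Other microRNAs that act on growth in plants were set beside miR396 as a list of 6 families. miR319 targets TCP genes, miR164 NAC genes, miR156 SPL genes, miR160 auxin response factors, miR166 HD-ZIP III genes, and miR390 triggers TAS3 small RNAs. Of their 38 named sequences 28 were tested. These hold 1 of the 3 of miR160, miR160a-3p (mean 15.5 TP5M in leaf), and none from its 5p arm. For older minus new leaf 1 was called higher, of miR156, and 2 lower, both of miR319, next to 9.58% higher and 4.87% lower over the whole table. Without a filter and in edgeR none was called (4 and 7 with an unadjusted p under 0.05), with the stage block 1 lower. None was called either in limma without the new trefoil leaf, the new germination leaf, the seed of week 8 or the flower 5 days after flowering. Without the senescent leaf 1 was higher, of miR319, and none lower, and leaving out the new leaf of flower bud differentiation also gave 1 higher and none lower. The other 11 fits without 1 library gave 0 to 1 higher and 1 to 3 lower. The list's median log2 difference was 0.14, against 0.063 over the whole table, and that of the 7 miR319 sequences −1.40. miR319a, the most abundant of its family, ran opposite to miR396, with 984 ± 859 TP5M in older leaf and 3735 ± 1375 TP5M in new leaf (log2 −2.75 ± 0.85 SE, limma adjusted p = 0.0394). That call was lost without a filter (0.0691), in edgeR (0.0823), with the stage block (0.0712) and in 6 of 17 fits that each left out 1 library. These were the new trefoil leaf (0.107), the new leaf at flower bud differentiation (0.0816), the new germination leaf (0.0507), the senescent leaf (0.152), the seed of week 8 (0.0522) and the flower 5 days after flowering (0.0512). The most abundant sequences of the other families had log2 differences of 4.05 for miR156a (adjusted p = 0.289), −1.55 for miR390a-5p (0.200), −0.31 for miR166a-3p (0.519), 0.21 for miR164a (0.943) and 0.06 for miR160a-3p (0.966) in limma, none of them called. miR390a-5p was called lower without the old leaf at flower bud differentiation (log2 −2.61, adjusted p = 0.0347).

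For flower minus leaf, 8 of the list's 28 tested sequences were called higher and 1 lower, next to 21.2% and 3.7% of the whole table. For seed minus flower 1 was higher and 12 lower (4.37% and 25.4% of the whole table), for seed minus pod 5 lower (12.3%), for seed minus leaf 6 lower (9.58%) and for pod minus leaf 1 lower (4.54%), with none higher in these last 3. For pod minus flower none was called in limma or edgeR, and 5 in limma and 6 in edgeR had an unadjusted p under 0.05. The list's medians were 1.25 for flower minus leaf (0.435 over the whole table), −1.58 for seed minus flower (−0.84) and −0.83 for seed minus pod (−0.639). With TMM scaling the whole-table medians became 0, −0.208 and −0.155, the list's 0.81, −0.998 and −0.13, and the calls 5 higher and 2 lower, 1 higher and 7 lower, and none higher and 5 lower. For flower minus leaf the list counted 4 higher and none lower without a filter, 3 and 2 in edgeR, 2 and 2 in edgeR with TMM, and 11 and none with the term for the 6 libraries, which left 3 lower for seed minus pod.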

How the data were processed

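Small RNAs from 23 libraries were read from 1 table whose values are a signal deposited by the authors as tags per 5000000 sequenced (TP5M), per the file headers. The submitters' processing notes name BWA with no role or version. Mapping settings and genome build were not given in the sources used here. Columns were matched to libraries by the number in each title. As a check, log2 values correlated at 0.833 within and 0.728 between organs with that number, against 0.762 and 0.739 with the number in brackets. Entries of identical sequence were merged by their maximum.

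In R 4.3.3, limma 3.58.1 was fitted to log2(TP5M + 5) for the 595 sequences whose mean reached 5 TP5M, with 1 mean per organ, a trended eBayes prior and a Benjamini-Hochberg threshold of 0.05 over all of them. Leaf was split into older and new leaf for that comparison. All 23 libraries entered these fits and shared 1 spread per sequence, also for the comparison of leaves. Ratios were compared by exact permutation with scipy 1.17.1. Low values were whole multiples of 1 read within 0.1 (28839 of 28839, 100%), so edgeR 4.0.16 was run on recovered reads. Alternatives were TMM scaling, a pseudocount of 1, no filter, edgeR with and without TMM, a term for the 6 libraries with 28 extra sequences, and leaving out each library of leaf, flower, pod and seed. A block for the plant stage of the leaf libraries was added after the data were seen. Intervals and the limit of 3 reads cover counting error only, since PCR copies cannot be told apart.

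Members and lists were chosen with earlier results of these data known. Sequences named are all members, all relatives by name or 18 shared nt, the 5 most like miR396b-5p, and the most abundant named sequence of each of 6 growth families. Stem, cotyledon, root and leaf bud, with 1 or 2 libraries each, entered the fits but were not compared in a test.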

Additional observations from a re-analysis of the deposited data

Results flagged for a closer look

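In leaf, miR396b-3p in the old leaf at flower bud differentiation stood apart from the other 5 leaf libraries, at 10484 TP5M. Its gap to the nearest leaf was 0.859 of the whole range of the group. This was the only one of 14 such tests on groups of 5 or 6 libraries to pass. Chance gives about 1 in 20, so a single pass among 14 is not unusual. The leaf group also mixes older and new leaves, which differ in level, on the TP5M scale.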

How the results depend on the processing

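For older minus new leaf, log2 differences over 7 alternatives were 1.91 to 2.78 for miR396b-5p, 4.35 to 4.80 for miR396a-5p, 4.75 to 5.94 for miR396i-3p and 3.80 to 4.81 for miR396b-3p. miR396b-5p lost its call without a filter (log2 2.40) and miR396b-3p with the stage block (4.05). Leaving out 1 library gave 2.01 to 3.15 for miR396b-5p and 3.21 to 4.87 for miR396b-3p. miR319a kept its sign, at −2.75 without a filter, −1.92 with edgeR, −1.69 with the stage block and −3.62 to −1.33 with 1 library left out. The uncalled miR164a was −0.84 with the term for 6 libraries (−0.53 to 1.63 with 1 library left out), miR160a-3p −0.041 with TMM and −0.12 with edgeR and TMM (−0.035 to 0.25), miR166a-3p −0.65 to 0.018 and miR390a-5p −2.61 to −0.52.

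Several uncalled organ differences changed sign. With edgeR, then with edgeR and TMM, flower minus leaf was −0.35 and −1.04 for miR396a-5p and −0.069 and −0.66 for miR396i-3p, pod minus leaf −0.24 and −0.53 for miR396a-5p and −0.29 and −0.51 for miR396i-3p, and seed minus leaf −0.95 and −0.45 for miR396a-5p, −1.82 and −1.23 for miR396i-3p and −1.45 and −0.69 for miR396b-3p. For miR396a-5p, pod minus flower was 0.11 and 0.51. With edgeR and TMM, flower minus leaf was −0.37 for miR396b-5p, pod minus flower 0.15 for miR396i-3p, and for miR396a-5p seed minus pod was 0.075 and seed minus flower 0.59. With TMM alone miR396a-5p stood at 0.12 in pod minus flower, at 0.73 in seed minus pod and at 0.85 in seed minus flower. With the term for 6 libraries, pod minus flower was −1.28 for miR396b-5p and −1.95 for miR396b-3p, pod minus leaf −0.41 for miR396a-5p, and seed minus pod 1.96 for miR396a-5p and 1.86 for miR396i-3p. The log2 ratio of miR396a-5p over miR396i-3p for seed minus leaf was −0.0041 with a pseudocount of 1.

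miR396b-5p lost its call for seed minus pod at −2.06 with TMM, −2.09 with edgeR and TMM and −0.80 with the term, and gained one for seed minus flower at −2.08 with a pseudocount of 1 and with the term, and for flower minus leaf at 1.82 with the term. Its F-test p was 0.164 with TMM, 0.0639 without a filter, 0.0808 with edgeR and 0.163 with edgeR and TMM.

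Leaving out 1 library moved miR396b-5p to −3.12 to −2.66 for seed minus pod, −2.50 to −1.82 for seed minus flower and an F-test p of 0.0201 to 0.134. miR396b-3p moved to 1.51 to 2.98 for flower minus leaf, 2.10 to 3.57 for pod minus leaf, −0.54 to 0.93 for seed minus leaf, −0.061 to 1.24 for pod minus flower and an F-test p of 0.0302 to 0.272. miR396a-5p moved to −0.21 to 1.48 for pod minus leaf, −0.20 to 1.03 for seed minus leaf, −0.97 to 0.73 in pod minus flower, −0.97 to 0.72 in seed minus pod and −0.86 to 0.011 for seed minus flower. miR396i-3p moved to −0.45 to 1.34 for seed minus leaf and −1.16 to 0.64 for pod minus flower. The log2 ratio of miR396b-5p over miR396b-3p moved to −0.20 to 0.51 in pod minus flower, −0.84 to 0.17 in seed minus pod and −0.60 to 0.33 in seed minus flower. That of miR396a-5p over miR396i-3p for seed minus leaf moved to −0.31 to 0.27, and that of miR396b-5p over miR396a-5p for flower minus leaf to −0.47 to 0.33.

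Of the table's 595 sequences, older minus new leaf called 57 higher and 29 lower, against 70 and 65 with TMM, 62 and 75 with the term, 71 and 54 with edgeR and TMM, 49 and 38 with the stage block and 52 and 14 of 2780 without a filter. Seed minus pod called 24 higher and 73 lower, against 45 and 45 with TMM, 11 and 6 with the term, 38 and 31 with edgeR and TMM and 107 and 98 without a filter. Seed minus flower called 26 higher and 151 lower, against 69 and 64 with TMM, 68 and 53 with edgeR and TMM and 145 and 159 without a filter. Flower minus leaf called 126 higher and 22 lower, against 61 and 38 with TMM, 57 and 38 with edgeR and 42 and 87 with edgeR and TMM. For pod minus leaf these were 73 and 27, against 41 and 31 with TMM, 23 and 33 with edgeR, 19 and 39 with edgeR and TMM and 32 and 27 with the term, for seed minus leaf 40 and 57, against 68 and 55 with TMM, 44 and 116 with edgeR, 62 and 87 with edgeR and TMM, 38 and 24 with the term and 184 and 49 without a filter, and for pod minus flower 4 and 8, against 6 and 5 with TMM, 1 and 3 with edgeR, 2 and 3 with edgeR and TMM and 15 and 8 without a filter. The cause of each change was not tested. No paired analysis by replicate number was possible because the labels give no such number; the stage block rests on stage names. With 1 leaf library per age and stage, leaf age and plant stage cannot be fully told apart.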
